A study of Homo sapiens with 6 samples.

Results

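The Notch receptors NOTCH1, NOTCH2 and NOTCH3, their ligands JAG1, JAG2 and DLL1, the nuclear effectors RBPJ and MAML2, and the target genes HES1 and HEY1 were examined for chromatin accessibility in A375 cells, an established human melanoma line. ATAC-seq, in which the transposase Tn5 cuts and tags open DNA, was done on 3 libraries of cells carrying an empty vector and 3 libraries of cells that stably overexpressed HMGB2 (HMGB2OE), a chromatin-binding high-mobility-group protein. The HMGB2OE line was made by lentiviral transduction of A375 cells and antibiotic selection, the labels name no treatment in either group, and the comparison asks whether raised HMGB2 alters which DNA is accessible. The libraries were technical replicates of an experiment that was not repeated, so the p-values below measure only the spread between these libraries. HMGB2 was supplied by a lentiviral vector, so accessibility of its own promoter does not check the labels.

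Peaks were taken when their centre lay in the GENCODE release 44 body of 1 of the 10 genes, or when they were intergenic and 1 of the genes had the nearest protein-coding start site. This gave 272 of the 152800 peaks of the atlas, of which 144 lay in a gene body and 128 were intergenic. In the bodies, 134 were intronic, 6 coding exonic and 4 in untranslated exons, and 30 peaks in all lay within 3 kb of a start site of a member gene. Low counts removed 4 peaks, all in NOTCH2, which left 268 tested peaks out of 150117. An intergenic peak is named here after the nearest gene, and no contact between the peak and that gene was measured.

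The libraries held from 26910189 to 45645294 counts in peaks, and values are given below after TMM normalization to a common library size. TMM places the centre of all log2 fold changes near 0, so a change shared by most peaks would not appear. In a bulk culture, fewer cells with an open site and less opening per cell cannot be told apart. Promoter peaks of the melanocyte-lineage genes SOX10 and MITF had mean counts of 862 and 1295, and that of PMEL, which is shared with RAB5B, had 3768. No promoter peak was assigned to the pigmentation genes DCT, TYR and MLANA. Of the markers of other cell types, PTPRC and ALB had no promoter peak, while PECAM1, EPCAM and CD3E had mean counts of 27.3, 217 and 248.

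Notch receptors are single-pass membrane proteins that are cut when a Jagged or Delta-like ligand on a neighbouring cell binds them. The released intracellular domain enters the nucleus, joins the DNA-binding protein RBPJ and a Mastermind-like coactivator such as MAML2, and turns on genes of the HES and HEY families, which encode basic helix-loop-helix repressors. In the melanocyte lineage the pathway is known for keeping melanoblasts and melanocyte stem cells, and in melanoma for roles in growth, invasion and signalling to neighbouring cells.

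The central 300 bases of the peaks on which the results turn are shown first, 5′ to 3′ on the plus strand of hg38. They are the JAG1 peaks with the lowest adjusted p-values, the peaks of NOTCH2 and RBPJ that passed both limits of the test, and the HES1 promoter peak. Capitals mark a word searched for on both strands of each peak. The words were GTGGGAA (the core of the RBPJ motif), TGACTCA (AP-1, dimers of the FOS and JUN proteins) and CACGTG (an E-box). The E-box and the RBPJ word can overlap by the letters GTG.
JAG1 chr20:11140439-11140738 (+): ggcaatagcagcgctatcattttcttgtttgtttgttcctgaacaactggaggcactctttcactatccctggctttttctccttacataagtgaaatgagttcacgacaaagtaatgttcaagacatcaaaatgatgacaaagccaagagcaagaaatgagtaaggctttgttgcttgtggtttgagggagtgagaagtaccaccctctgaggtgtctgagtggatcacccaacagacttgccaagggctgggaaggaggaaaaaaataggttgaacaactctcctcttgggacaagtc
JAG1 chr20:10706047-10706346 (+): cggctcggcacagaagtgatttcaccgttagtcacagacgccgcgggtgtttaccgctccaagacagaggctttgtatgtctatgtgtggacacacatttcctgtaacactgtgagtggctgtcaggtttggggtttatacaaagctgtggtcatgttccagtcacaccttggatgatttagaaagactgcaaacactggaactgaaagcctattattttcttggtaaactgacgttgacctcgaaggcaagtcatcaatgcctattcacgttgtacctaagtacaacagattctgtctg
JAG1 chr20:11158597-11158896 (+): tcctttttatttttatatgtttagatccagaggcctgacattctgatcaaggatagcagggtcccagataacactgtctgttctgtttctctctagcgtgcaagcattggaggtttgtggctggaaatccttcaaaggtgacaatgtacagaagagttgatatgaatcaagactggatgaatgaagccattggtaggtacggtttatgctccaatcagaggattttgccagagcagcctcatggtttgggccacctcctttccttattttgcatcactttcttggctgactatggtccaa
NOTCH2 chr1:119962408-119962707 (+): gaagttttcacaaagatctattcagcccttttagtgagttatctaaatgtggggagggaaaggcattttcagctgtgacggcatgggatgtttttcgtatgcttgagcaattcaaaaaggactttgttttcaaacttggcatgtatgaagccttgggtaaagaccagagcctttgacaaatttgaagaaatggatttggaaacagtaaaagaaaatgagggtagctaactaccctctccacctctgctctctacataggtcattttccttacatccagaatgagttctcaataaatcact
RBPJ chr4:26161403-26161702 (+): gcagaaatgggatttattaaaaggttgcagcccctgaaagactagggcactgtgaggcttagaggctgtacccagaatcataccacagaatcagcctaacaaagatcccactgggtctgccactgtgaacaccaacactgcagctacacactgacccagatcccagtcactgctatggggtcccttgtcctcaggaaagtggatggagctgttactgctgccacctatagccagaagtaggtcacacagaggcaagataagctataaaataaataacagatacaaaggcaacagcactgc
RBPJ chr4:26326812-26327111 (+): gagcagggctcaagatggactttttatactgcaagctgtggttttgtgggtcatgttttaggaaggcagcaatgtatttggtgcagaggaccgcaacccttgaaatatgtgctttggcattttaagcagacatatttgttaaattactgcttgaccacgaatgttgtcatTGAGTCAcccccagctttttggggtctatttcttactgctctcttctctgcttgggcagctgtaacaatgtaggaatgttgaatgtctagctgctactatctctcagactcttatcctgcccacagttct
HES1 chr3:194134894-194135193 (+): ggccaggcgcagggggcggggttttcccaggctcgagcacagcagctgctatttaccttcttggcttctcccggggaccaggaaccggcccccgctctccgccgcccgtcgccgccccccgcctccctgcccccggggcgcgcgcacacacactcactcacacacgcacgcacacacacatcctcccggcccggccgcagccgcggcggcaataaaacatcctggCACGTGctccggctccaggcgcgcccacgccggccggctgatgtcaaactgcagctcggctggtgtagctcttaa
The AP-1 word lies in the RBPJ intronic peak, on the minus strand, and the E-box, which is its own reverse complement, lies in the HES1 promoter peak. Over their full width of 502 bp, the JAG1 peak at 11158496 also held 1 RBPJ word outside the bases shown. The other peaks shown held none of the words. Among the 268 member peaks, 11.9% held the RBPJ word, 30.6% the AP-1 word and 7.46% the E-box. Among all tested peaks the shares were 10.7%, 28.0% and 6.85%. A match is a description of the letters and not a bound site.

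Few of the member peaks passed the test in either direction. Of the 268, 3 were called higher in HMGB2OE libraries (1.12%) and 2 were called lower (0.746%), where a call needed an adjusted p-value under 0.05 from edgeR's quasi-likelihood test and a fold change of at least 1.5. The background was 1.87% higher and 1.44% lower over the whole table. At the adjusted p-value alone, 5 member peaks were higher and 7 lower, which is 1.87% and 2.61%, beside 3.44% and 3.03% of all peaks. The libraries of the conditions did not overlap at 27 member peaks that were higher and 32 that were lower, or 10.1% and 11.9%, beside 12.6% and 12.5% of all peaks. The median log2 fold change of the members was −0.01, against 0.00 for all tested peaks, and 131 of the 268 lay above 0. The share above 0 was 48.9%, beside 49.2% of all peaks. Each of these shares was below the share over all peaks, some of them only slightly. With so few calls, nothing is read from the difference. Promoter peaks over the whole table leaned lower in HMGB2OE libraries. For this set, start sites of long non-coding as well as protein-coding transcripts were used, again within 3 kb. By this wider definition the set held 58 of the tested member peaks. The median log2 fold change of the whole set was −0.04 and 41.2% of its 39607 tested peaks lay above 0. The libraries did not overlap at 5993 that were lower and 3467 that were higher. At the adjusted p-value alone, 867 were lower and 817 higher. With the fold limit of 1.5 added, 312 were lower and 387 higher, so the called promoter peaks did not lean lower. Lower values at promoter peaks of single genes below are to be read beside this lean.

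**Figure D1:**
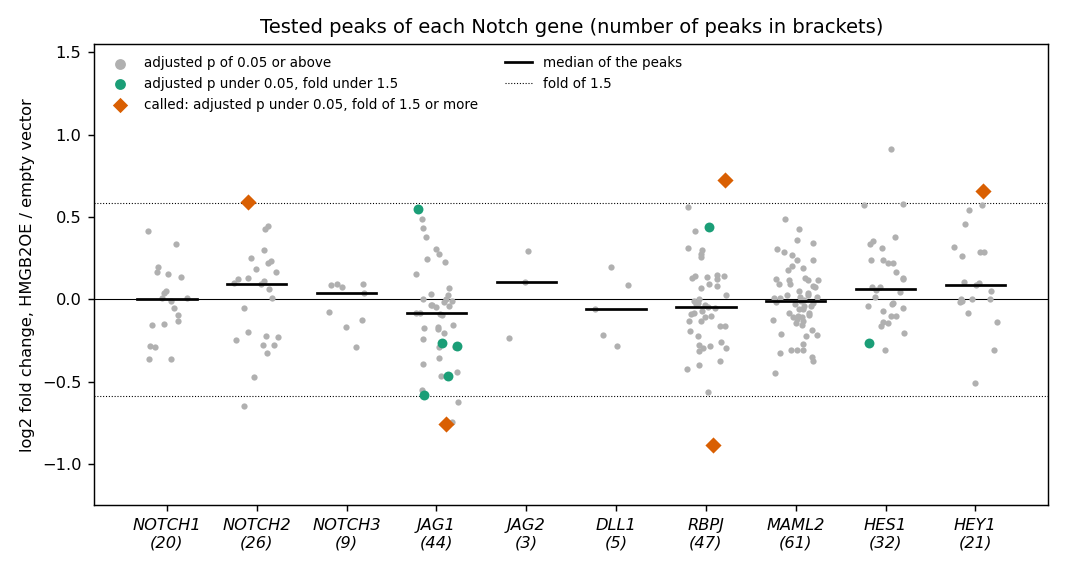
Log2 fold change of HMGB2OE over empty vector (vertical axis) for each of the 268 tested peaks, by gene, with the number of peaks in brackets, the median as a black line and a fold of 1.5 as dotted lines. The 5 called peaks (diamonds) belong to NOTCH2, JAG1, RBPJ and HEY1, and most of the peaks at an adjusted p-value under 0.05 but a fold under 1.5 (green circles) belong to JAG1.

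The 3 receptor genes had 1 call among 55 tested peaks. At the shares called over all peaks, 1.87% higher and 1.44% lower, 55 peaks would hold few calls, and nothing is read from this count. NOTCH1 (ENSG00000148400.13, chr9:136494433-136546048, minus strand) had 20 peaks with a median log2 fold change of 0.00. Its promoter peak, 160 bp upstream of the start site at chr9:136545958-136546459, had counts of 984, 1014 and 968 in empty vector and 1019, 1052 and 1001 in HMGB2OE libraries. The groups overlapped, and the log2 fold change of 0.05 (standard error, SE, 0.08) had an adjusted p of 0.772 from edgeR, with a 95% interval of −0.11 to 0.21. The NOTCH1 peak of lowest p-value was in an untranslated exon at chr9:136494570-136495071, 51.2 kb into the gene, where the nearest start site is that of SEC16A. Its log2 fold change of 0.42 did not pass the test (edgeR adjusted p = 0.224), although the 3 HMGB2OE libraries, at 83.3, 83.4 and 88.9, lay above those of empty vector, at 77.8, 61.1 and 53.8.

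NOTCH3 (ENSG00000074181.9, chr19:15159038-15200995, minus strand) had 9 peaks with log2 fold changes from −0.29 to 0.10, none of which separated the conditions. Its promoter peak of highest count was intronic, 2.81 kb into the gene at chr19:15197931-15198432, and was also its peak of lowest p-value. The counts were 139, 106 and 140 in empty vector and 103, 95.1 and 116 in HMGB2OE libraries, which overlapped. The log2 fold change was −0.29 (SE 0.16, edgeR adjusted p = 0.324).

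NOTCH2 (ENSG00000134250.21, chr1:119911553-120100779, minus strand) was a special case, since its region has near-copies elsewhere on the chromosome in the NOTCH2NL genes. In 21 of its 30 peaks more than 50% of the words of 31 bases occurred elsewhere in the genome, and all 4 untested peaks shared 100% of their words. How reads with several alignments were counted is not given in the sources used here, so counts at the shared peaks may include or lack reads of the copies. The peak at the main start site, chr1:120069597-120070098, shared 93.4% of its words. Its counts were 352, 359 and 326 in empty vector and 286, 319 and 245 in HMGB2OE libraries, and all HMGB2OE libraries lay below all empty vector libraries. The log2 fold change of −0.28 (SE 0.11) did not pass the test, with an adjusted p of 0.148 from edgeR. Peaks of the 10 Mb window that holds it had a median log2 fold change of −0.23, and relative to that median the peak was at −0.05. That window is not centred on the peak. The 136 other tested peaks within 1 Mb of the gene had a median of −0.007. Summed over peaks within 3 kb of a NOTCH2 start site, the log2 fold change was 0.06 (edgeR adjusted p = 0.761). Whether the lower value at this peak belongs to its region was not tested.

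The called NOTCH2 peak lay in the unshared 3′ part of the gene, in an intron at chr1:119962307-119962808, 107 kb from the start site, and 0% of its words occurred elsewhere. The start site nearest to it is that of ADAM30. The counts were 87.6, 151 and 111 in empty vector and 185, 194 and 155 in HMGB2OE libraries, so that the lowest HMGB2OE library was close to the highest empty vector library. The log2 fold change was 0.59 (SE 0.16, edgeR adjusted p = 0.0245), just past the fold limit of 0.585 on this scale. With a loess trend on mean count it was 0.565 (edgeR adjusted p = 0.0285), under that limit, and the call was lost. The edgeR adjusted p was 0.117 without empty vector replicate 1, 0.0742 without empty vector replicate 3, 0.0952 without HMGB2OE replicate 1 and 0.107 without HMGB2OE replicate 2. The 9 tested peaks with at most 50% shared words had a median log2 fold change of 0.06 and the 17 others one of 0.12.

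**Figure D2:**
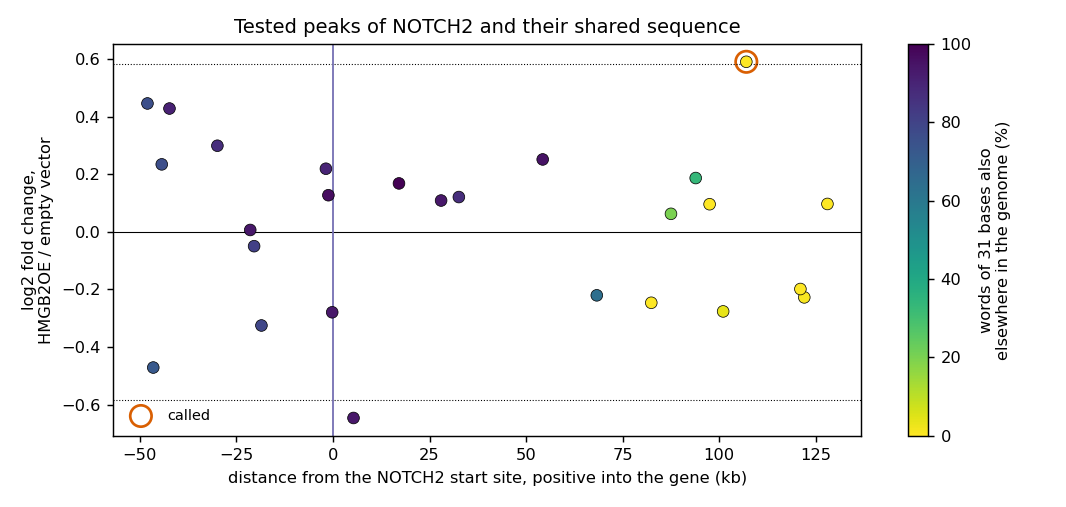
Log2 fold change of the 26 tested NOTCH2 peaks (vertical axis) by distance from the main start site in kb (horizontal axis), shaded by the percent of their words of 31 bases that occur elsewhere in the genome. The circled called peak, at 107 kb, lies among the peaks with little shared sequence, and the peaks around the start site share most of theirs.

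Among the ligands, JAG1 had peaks past the adjusted p-value of 0.05, and no peak of JAG2 or DLL1 passed it. JAG1 (ENSG00000101384.12, chr20:10637684-10673999, minus strand) encodes Jagged 1, mutated in Alagille syndrome. It had 44 tested peaks, 41 of them intergenic and 33 more than 100 kb from the start site. At the adjusted p-value alone 5 were lower (11.4%) and 1 was higher (2.27%) in HMGB2OE libraries, beside 3.03% and 3.44% of all peaks. The libraries of the conditions did not overlap at 13 peaks that were lower (29.5%) and 4 that were higher (9.09%), beside 12.5% and 12.6% of all peaks. The median log2 fold change of the JAG1 peaks was −0.09, and that of the 84 other tested peaks within 1 Mb was −0.01.

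The called JAG1 peak was intergenic, 467 kb upstream at chr20:11140338-11140839, and is the first sequence shown. Its counts were 206, 271 and 231 in empty vector and 133, 157 and 131 in HMGB2OE libraries. Every HMGB2OE library was below every empty vector library, a log2 fold change of −0.76 (SE 0.14, edgeR adjusted p = 0.000888). With 1 library left out at a time the log2 fold change stayed between −0.85 and −0.63, and the adjusted p-value was at most 0.016 in all 15 other fits.

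The other JAG1 peaks at an adjusted p-value under 0.05, which are named here after their values were seen except for the promoter peak, missed the fold limit. The peak 32.2 kb upstream at chr20:10705946-10706447, within the long non-coding gene LINC01752, had counts of 1217, 1461 and 1362 in empty vector and 1031, 960 and 941 in HMGB2OE libraries. Its groups did not overlap, and its log2 fold change of −0.46 (SE 0.08, edgeR adjusted p = 0.000804) passed in all 15 other fits with adjusted p-values up to 0.0124. The peak 485 kb upstream at chr20:11158496-11158997 had 284, 356 and 346 in empty vector and 222, 242 and 197 in HMGB2OE libraries. It was again lower in all HMGB2OE libraries, at a log2 fold change of −0.58 (SE 0.12, edgeR adjusted p = 0.00347), and its highest adjusted p-value over the other fits was 0.0287. A peak 444 kb upstream was lower by less, with a log2 fold change of −0.28 (edgeR adjusted p = 0.0475), and the single fit with 1 library left out that kept it was that without empty vector replicate 1, the others giving 0.0849 to 0.173. The single higher peak, 305 kb upstream at chr20:10978755-10979256, had a log2 fold change of 0.55 (edgeR adjusted p = 0.0162), from 118, 174 and 172 to 214, 220.2 and 256. Its conditions did not overlap either, but the edgeR adjusted p was 0.0862 without empty vector replicate 1 and 0.0716 without HMGB2OE replicate 3.

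The JAG1 promoter peak, 134 bp upstream of the start site at chr20:10673883-10674384, was lower in HMGB2OE libraries by 16.9%. Its counts were 1395, 1371 and 1336 in empty vector and 1120, 1109 and 1182 in HMGB2OE libraries, with no overlap. The log2 fold change of −0.27 (SE 0.08) had an adjusted p of 0.0318 from edgeR, while offsets for GC content, which was 69.7% in this peak, gave −0.23 and an adjusted p of 0.0747. The adjusted p was 0.1 without empty vector replicate 2, 0.14 without HMGB2OE replicate 1 and 0.129 without HMGB2OE replicate 2 in edgeR. By position, the 4 peaks in the body or within 3 kb of the start had a median log2 fold change of −0.15, the 7 peaks from 3 to 100 kb upstream −0.29, the 17 from 100 to 400 kb −0.03 and the 16 beyond 400 kb −0.18. In the outermost zone 13 of 16 peaks lay below 0. Neighbouring peaks share a region and are not independent.

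**Figure D3:**
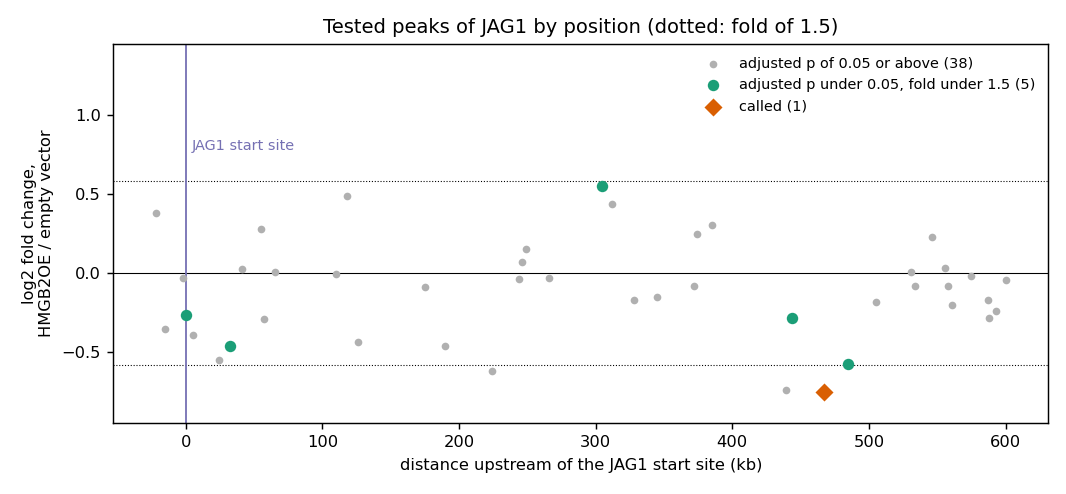
Log2 fold change of HMGB2OE over empty vector (vertical axis) for the 44 tested JAG1 peaks by distance upstream of the start site in kb (horizontal axis). The called peak at 467 kb stands between lower peaks at 444 and 485 kb, and the other lower peaks at an adjusted p-value under 0.05 are at the start site and 32.2 kb upstream.

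JAG2 (ENSG00000184916.9, chr14:105140982-105168824, minus strand) encodes the other Jagged ligand and had 3 peaks. Its promoter peak in an untranslated exon, at chr14:105168531-105169032, had counts of 118, 80.9 and 78.4 in empty vector and 91.8, 104 and 97.9 in HMGB2OE libraries. The groups overlapped (log2 fold change 0.10, SE 0.18, edgeR adjusted p = 0.803), and the 95% interval of −0.27 to 0.48 leaves changes of either sign. The JAG2 peak of lowest p-value, 2.79 kb upstream, had a log2 fold change of 0.30 with an adjusted p of 0.522 from edgeR.

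DLL1 (ENSG00000198719.9, chr6:170282206-170306565, minus strand) encodes a Delta-like ligand, and its 5 peaks also lay in the body of FAM120B. Their log2 fold changes ran from −0.28 to 0.20. The lowest p-value was at an intronic peak at chr6:170294383-170294884, with a log2 fold change of −0.28 (edgeR adjusted p = 0.543). The strongest peak near a DLL1 start, chr6:170306411-170306912, was centred 96 bp from the 5′ end of its longest transcript but outside the DLL1 body, and so is assigned to FAM120B and not counted among the 272. Its counts were 896, 1035 and 1027 in empty vector and 892, 842 and 826 in HMGB2OE libraries. The groups were adjacent without overlap, and the log2 fold change of −0.21 (SE 0.08, edgeR adjusted p = 0.138) did not pass.

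RBPJ, the DNA-binding partner of the Notch intracellular domain, held a called peak in each direction. The gene (ENSG00000168214.22, chr4:26163455-26435131, plus strand) had 47 tested peaks with a median log2 fold change of −0.05. The higher peak was intergenic at chr4:26161302-26161803, 159 kb upstream of the main start site and just outside the 5′ end of the longest transcripts. Its counts were 87.6, 65.4 and 81.9 in empty vector and 117, 110.1 and 159 in HMGB2OE libraries. All HMGB2OE libraries were higher, at a log2 fold change of 0.72 (SE 0.18, edgeR adjusted p = 0.0138), but the adjusted p was 0.0985 without empty vector replicate 2 and 0.105 without HMGB2OE replicate 3.

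The lower RBPJ peak was intronic, 5.95 kb downstream of the main start at chr4:26326711-26327212, and is the one that holds the AP-1 word. Its counts were small, at 59.8, 53.3 and 73.7 in empty vector and 28.1, 29.2 and 45 in HMGB2OE libraries. The groups did not overlap, and the log2 fold change was −0.88 (SE 0.27, edgeR adjusted p = 0.0413), while DESeq2 gave an adjusted p of 0.0717. With 1 library left out only the fit without HMGB2OE replicate 3 kept the call, and the other fits gave 0.0543 to 0.167. Another RBPJ peak, intronic at chr4:26235448-26235949 and named after its value was seen, was higher at the adjusted p-value alone, with a log2 fold change of 0.44 (edgeR adjusted p = 0.0325), and lost this with any library but HMGB2OE replicate 1 left out, at 0.0601 to 0.164. The RBPJ promoter peak, chr4:26319172-26319673, was the most accessible of all member peaks with a mean of 2056 and held 2 RBPJ words. Its counts of 1987, 2116 and 2251 in empty vector and 2029, 1996 and 1955 in HMGB2OE libraries overlapped, and the log2 fold change was −0.09 (SE 0.07, edgeR adjusted p = 0.533).

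MAML2, which encodes a Mastermind-like coactivator, had the most peaks and no call. The gene (ENSG00000184384.15, chr11:95976598-96343195, minus strand) had 61 tested peaks, 60 of them in its body of 367 kb, with a median log2 fold change of −0.01 and a range of −0.45 to 0.49. The promoter peak, 91 bp upstream at chr11:96343036-96343537, had counts of 1170, 1241 and 1225 in empty vector and 1204, 1365 and 1317 in HMGB2OE libraries. The groups overlapped, at a log2 fold change of 0.09 (SE 0.08, edgeR adjusted p = 0.533). The MAML2 peak of lowest p-value, an intronic one at chr11:96314258-96314759, had a log2 fold change of −0.31 (edgeR adjusted p = 0.132).

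The target gene HES1 (ENSG00000114315.4, chr3:194136148-194138732, plus strand) had 32 peaks, all intergenic, with a median log2 fold change of 0.07. Its promoter peak, centred 1.1 kb upstream of the start site at chr3:194134793-194135294, does not cover the start site itself. The counts were 1102, 1198 and 1163 in empty vector and 953, 1001 and 924 in HMGB2OE libraries. All HMGB2OE libraries were lower, by 16.9% on average (log2 fold change −0.27, SE 0.08, edgeR adjusted p = 0.0402). With offsets for GC content, which was 72.9% in this peak, the log2 fold change was −0.23 and the adjusted p 0.0949. With 1 library left out it passed only without empty vector replicate 1, and the other 5 fits gave adjusted p-values of 0.0746 to 0.158. Over all 32 HES1 peaks 19 lay above 0, and the conditions did not overlap at 6 that were higher (18.8%) and 3 that were lower (9.38%), beside 12.6% and 12.5% of all peaks. No other HES1 peak passed the test.

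**Figure D4:**
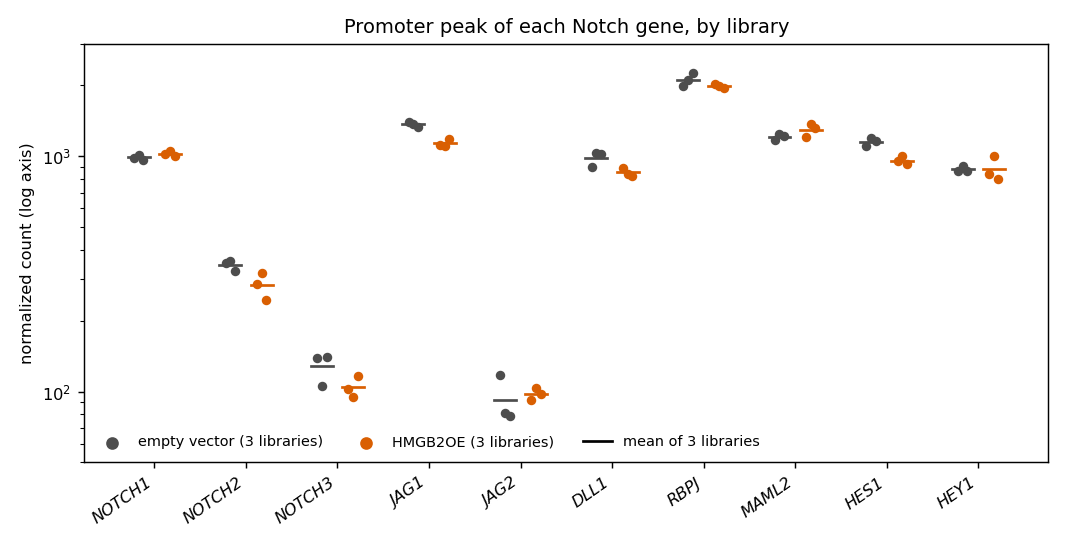
Normalized count (vertical axis, log scale) of the promoter peak of each gene in the 3 empty vector (grey) and 3 HMGB2OE (orange) libraries, with group means as lines. The libraries separate without overlap, lower in HMGB2OE, at NOTCH2, JAG1, DLL1 and HES1, and the differences pass an adjusted p-value of 0.05 at JAG1 and HES1. Among all 39607 tested promoter peaks of the atlas, which include those near starts of long non-coding genes, 5993 separated lower and 3467 higher. The plotted peaks are the highest-count promoter peak of each gene, so the sets are unlike. Whether the lower separations are particular to these genes was not tested, and nothing is read from them.

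HEY1 (ENSG00000164683.19, minus strand, 5.49 kb long) had 21 tested peaks, 20 of them intergenic, with a median log2 fold change of 0.09. Its promoter peak, 194 bp upstream of the main start site, held 1 RBPJ word and had counts of 869, 906 and 864 in empty vector and 841, 998 and 804 in HMGB2OE libraries. The groups overlapped, and the log2 fold change was 0.00 (SE 0.09, 95% interval −0.18 to 0.19, edgeR adjusted p = 0.988). The called HEY1 peak was intergenic, 72.7 kb downstream of the start site, and held an E-box. Its counts were 62.5, 67.1 and 69 in empty vector and 125, 112 and 75.4 in HMGB2OE libraries, with HMGB2OE replicate 3 close to the empty vector libraries. The log2 fold change was 0.66 (SE 0.20, edgeR adjusted p = 0.0379), and DESeq2 gave an adjusted p of 0.0876. With 1 library left out only the fit without HMGB2OE replicate 3 kept the call, at 0.0107, and the other fits gave 0.066 to 0.235.

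At the level of whole genes, counts were summed over all peaks of each gene and tested among 18289 protein-coding genes. JAG1 was the single member of 10 called lower and none was called higher at an adjusted p-value under 0.05, beside 3.36% and 5.74% of all genes. The JAG1 sums were 14704, 15298 and 14972 in empty vector and 13881, 13663 and 13316 in HMGB2OE libraries. The groups did not overlap, and the sum was lower by 9.15% (log2 fold change −0.14, SE 0.04, edgeR adjusted p = 0.0327). With 1 library left out only the fit without empty vector replicate 1 kept the call. The adjusted p was 0.148 and 0.0513 without empty vector replicates 2 and 3, and 0.0915, 0.0832 and 0.106 without HMGB2OE replicates 1, 2 and 3. It was 0.0577 over the uncalled peaks and 0.172 over peaks within 3 kb of a start site. HEY1 had the next lowest p-value, with sums of 4682, 4677 and 4449 in empty vector and 4871, 5058 and 4776 in HMGB2OE libraries, a separation of 6.53% that did not pass (log2 fold change 0.09, edgeR adjusted p = 0.153). NOTCH1 also separated, at a log2 fold change of 0.06 (edgeR adjusted p = 0.323), and the remaining 7 genes had overlapping libraries and adjusted p-values of 0.57 or more. The share of all genes whose sums separated is not given here, so nothing is read from these separations.

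**Figure D5:**
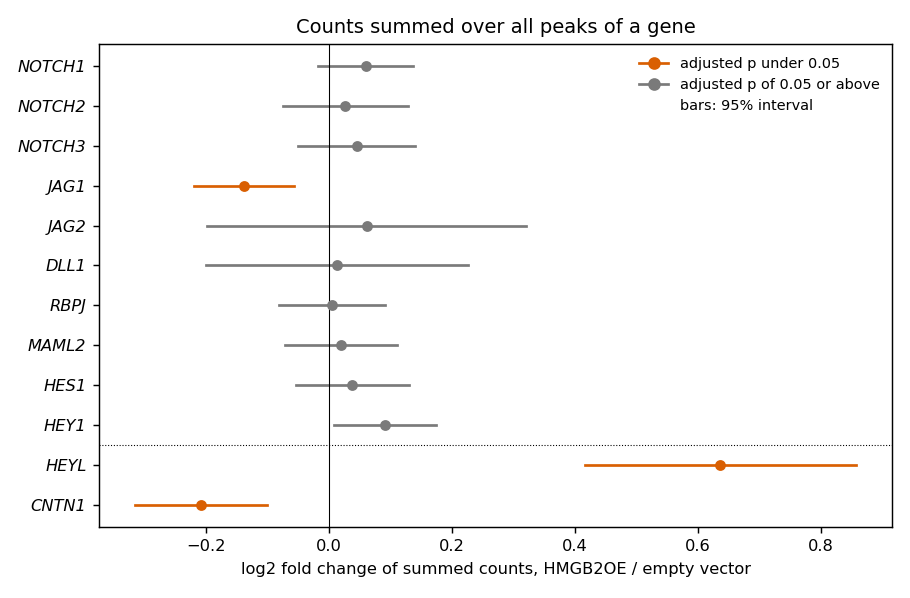
Log2 fold change of counts summed over all peaks of a gene (points, horizontal axis) with 95% intervals (bars) for the 10 member genes and, below the dotted line, the pathway genes HEYL and CNTN1. JAG1 at −0.14 and CNTN1 at −0.21 lie below 0 and HEYL at 0.64 above it.

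The rest of the pathway was taken from a list of 59 genes, of which 57 had at least 1 peak. Of their 561 tested peaks 12 were called higher (2.139%) and 7 lower (1.248%), beside 1.87% and 1.44% of all peaks. At the adjusted p-value alone 21 were higher (3.74%) and 15 lower (2.67%), beside 3.44% and 3.03%, so that these shares lay near those over the whole table. The calls fell in 9 genes. HEYL, another HEY-family target, had 2 of its 4 peaks called higher. The HEYL intronic peak 2.15 kb into the gene, chr1:39637244-39637745, had counts of 250.2, 290.0 and 326 in empty vector and 464, 408 and 523 in HMGB2OE libraries. Every HMGB2OE library was above every empty vector library (log2 fold change 0.68, SE 0.12, edgeR adjusted p = 0.000514), and the call held in all 15 other fits. The HEYL peak 21.9 kb downstream of the start site, chr1:39617530-39618031, had a log2 fold change of 0.80 (edgeR adjusted p = 0.0093) and held the AP-1 word, and is named after its value was seen.

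Summed over its peaks, HEYL was higher by 55.5%, with 399, 426 and 519 in empty vector and 673, 626 and 802 in HMGB2OE libraries (log2 fold change 0.64, SE 0.11, edgeR adjusted p = 0.00118). The sums separated, and the adjusted p-value was at most 0.0198 in the 12 other fits on these peaks, but 0.532 over the uncalled peaks alone. Whether the change at HEYL differed from that at HES1 or HEY1 was not tested. CNTN1, a contactin described as a non-canonical Notch ligand, was lower (log2 fold change −0.21, edgeR adjusted p = 0.0175), but missed the threshold without empty vector replicate 2 (0.131), HMGB2OE replicate 1 (0.0554) and HMGB2OE replicate 3 (0.0703). Over the uncalled CNTN1 peaks the log2 fold change was −0.11 (edgeR adjusted p = 0.242).

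Among the other called peaks, an intronic CNTN1 peak fell from 398 ± 39.4 to 237 ± 18.7 (SD, n = 3, log2 fold change −0.75, edgeR adjusted p = 0.000134). It lay 215 kb from the main start site but 1029 bp from another annotated CNTN1 start, and so within the 3 kb used for promoter peaks. DLK1, an atypical ligand without the receptor-activating domain, had a peak 61.8 kb downstream that rose from 153 ± 14 to 259 ± 13.4 (log2 fold change 0.75, edgeR adjusted p = 0.000453). That peak lay within the long non-coding gene MEG3. Another DLK1 peak, 34.8 kb downstream and named after its value was seen, fell from 119 ± 22.6 to 70.2 ± 5.47 (log2 fold change −0.76, edgeR adjusted p = 0.00965). MAML3, a relative of MAML2, had an intronic peak that fell from 81.5 ± 4.59 to 34.3 ± 6.24 (log2 fold change −1.247, edgeR adjusted p = 0.00115) and another that rose, with a log2 fold change of 0.66 (edgeR adjusted p = 0.00298). NUMB, an endocytic inhibitor of Notch, had a peak 5.1 kb upstream of its start that fell from 235 ± 7.35 to 149 ± 11.7 (log2 fold change −0.66, edgeR adjusted p = 0.00165). The other called NUMB peaks, named after their values were seen, were both higher, with log2 fold changes of 0.63 (edgeR adjusted p = 0.0309) and 0.84 (edgeR adjusted p = 0.0327). Of the 10 pathway peaks of lowest adjusted p-value, the remaining ones were at the corepressor genes CTBP2, 384 kb upstream, with a log2 fold change of −0.79 (edgeR adjusted p = 0.00169), and TLE1, where 1 peak fell (log2 fold change −0.84, edgeR adjusted p = 0.00252) and 2 rose, by 0.78 and 1.10. These 3 peaks of TLE1 lay 258 kb or more from the start site, and TLE1 had 2 further called peaks, both higher, of which 1 lay 98.5 kb upstream. Calls at HDAC1 and at NOTCH2NLR, a NOTCH2 copy whose peak shares 100% of its words, completed the 9 genes. No peak was called among the genes of the gamma-secretase complex, the 2 metalloproteases, the glycosyltransferases or the 10 ubiquitin ligases of the list, which had 19, 20, 16 and 94 tested peaks. At the shares called over the whole table, 1.87% higher and 1.44% lower, groups of this size would hold few calls, and nothing is read from these counts.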

How the data were processed

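ATAC-seq libraries of A375 cells, 3 of empty vector and 3 of HMGB2OE, were grouped by GEO's labels. The authors trimmed reads (Trim Galore 0.6.7 and cutadapt 4.0, per the submitters' processing notes) and aligned them with Bowtie 2 to hg38. After duplicate removal by Picard, peaks came from MACS2 with a public melanocyte dataset as control, and featureCounts gave the reads in each peak of 1 merged atlas. The deposited values are raw counts per peak and library, without normalization. A Tn5 shift, the treatment of reads with several alignments, and whether peaks were called per library or on pooled libraries are not given in the sources used here, and the second of these bears on NOTCH2.

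Counts were tested with edgeR 4.0.16 in R 4.3.3 (TMM, filterByExpr, quasi-likelihood test, no covariate, Benjamini–Hochberg adjustment over all tested peaks or genes). Normalized counts are scaled to the mean effective library size. Standard errors follow from the F statistic and the log2 fold change. DESeq2 1.42.0 was an alternative. TMM factors lay between 0.975 and 1.02, and the chi-square per degree of freedom between libraries of 1 condition was 2.49 to 4.65, above sampling noise, so each counted as a library. With 3 against 3 libraries, an exact permutation test of a single value cannot go below 0.1 and was not used. Peaks were annotated with GENCODE release 44. For each peak, the share of its words of 31 bases found elsewhere in hg38 was counted. The scripts were tested on simulated data.

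For each member gene the text names the promoter peak (within 3 kb of a start site) of highest mean count, every called peak, and, where none was called, the peak of lowest p-value. Of the other pathway genes it names those with a called peak, at most the 10 peaks of lowest adjusted p-value. Gene sums are given for 2 of these genes, and 1 result for another pathway gene is not reported here. The members, gene lists, motif words and tests were chosen with earlier results of these data known.

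The alternatives were library size only, DESeq2 size factors, a loess trend, DESeq2's Wald test, no low-count filter or a minimum of 10 per library, GC-content offsets, a block for replicate number, the block and offsets combined, 10 Mb windows centred on their median, each library left out, a lower fold limit and none, assignment of every peak to the nearest start site, and, for gene sums, the subsets of peaks near start sites, not called, or with under 50% shared words. The last subset was chosen after seeing the data. Beside the main fit, 15 fits gave adjusted p-values for peaks and 12 for gene sums over all peaks.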

Additional observations from a re-analysis of the deposited data

How the results depend on the processing

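Member calls changed with the library left out: calls higher ran from 1 to 4 and calls lower from 1 to 3, those over all peaks from 1821 to 2978 higher and from 1552 to 2237 lower, and those of the other pathway genes from 7 to 14 higher and from 5 to 9 lower. Without HMGB2OE replicate 1, 1821 peaks were called higher in all. Calls lower among members numbered 1 with library size only and 1 with DESeq2. With the lower fold limit, 5 member peaks were higher and 4 lower, 5045 and 4283 over all peaks, and 21 and 15 in the other pathway genes. With no fold limit these were 5 and 7, 5164 and 4546, and 21 and 15. The promoter peaks that were lower at the adjusted p-value, JAG1 and HES1, numbered 0 with GC-content offsets, 0 with the replicate block and GC-content offsets together, and from 0 to 3 with 1 library left out. The gene-level count of members lower was 0 for sums within 3 kb of a start site, 0 for sums over uncalled peaks, and from 0 to 1 with 1 library left out. The causes of these changes were not tested. The fits with a library left out also held fewer libraries, and the sums over subsets held fewer peaks.

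Same-numbered libraries had correlations of deviations from their group means from −0.0886 to 0.185. Those of differently numbered libraries ran from −0.2655 to 0.1515. For 2 of the empty vector libraries the best correlated HMGB2OE library was that of the same number. These values do not settle whether the numbers pair the libraries, and the main fit used no pairing. The replicate block gave 3 member peaks higher and 3 lower, with all 5 main calls shared, and 3192 peaks higher and 2383 lower over all. It left 13 other pathway peaks higher and 8 lower, 2 promoter peaks lower and 1 member gene lower.

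Values near 0 changed sign in some fits and passed no test in them. The HEY1 promoter peak reached −0.0024, −0.0114 and −0.0971 without empty vector replicates 1 and 3 and HMGB2OE replicate 2, and −0.0123 centred on 10 Mb windows. With 1 library left out, the highest values were 0.0648 for that peak and, for gene sums, 0.079 (NOTCH2), 0.1256 (JAG2), 0.0683 (DLL1), 0.0346 (RBPJ), 0.0464 (MAML2) and 0.0695 (HES1). Gene sums reached −0.0009 (NOTCH2, without empty vector replicate 3), −0.0197 (JAG2) and −0.0061 (DLL1) without empty vector replicate 2, −0.0009 and −0.0258 (DLL1) without HMGB2OE replicates 2 and 3, and −0.0022 (MAML2), −0.0105 (HES1) and −0.0152 (RBPJ) without empty vector replicate 1. RBPJ was at −0.004 and −0.0138 without HMGB2OE replicates 1 and 2 and at −0.0036 with library size only. NOTCH2 was at −0.0018 over uncalled peaks, and NOTCH3, DLL1 and HES1 were at −0.1079, −0.0855 and −0.1231 over peaks within 3 kb of a start site.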
